A study of Mus musculus with 30 samples.

Results

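The genes described here are 10 genes linked to the primed epiblast state, namely Otx2, Fgf5, Pou3f1, Fst, Cldn6, Foxd3, Zic2, Nodal, Lefty1 and Lefty2. They are a list of names with no limit on their values, drawn up with earlier results of these data known, and all 10 were found among the 20286 gene symbols of the expression tables. Expression was measured by polyA RNA sequencing with 51-bp reads in mouse embryonic stem (ES) cells, from 2 libraries of Tdg -/- cells, in which the gene of thymine DNA glycosylase is deleted, and 2 libraries of Tdg fl/fl cells, which carry floxed alleles of it. Thymine DNA glycosylase removes 5-formylcytosine (5fC), an oxidised form of methylated cytosine, from DNA. Both genotypes are labelled with the strain C57BL/6-ICR. The Cre that removed the floxed alleles, the number of clones and the medium of the RNA cultures were not stated in the labels used here. For ES cells of other libraries the labels describe feeder-free culture with LIF, CHIR99021 and PD0325901, an inhibitor of the kinase MEK in the FGF/ERK pathway.

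Each genotype has 1 deposited FPKM value per gene (sequenced fragments scaled to transcript length and to the number mapped), which stands for both libraries. No spread between replicates can therefore be had, no difference below was tested, and every value describes these pooled tables. The change of a gene is given as log2((Tdg -/- FPKM + 1)/(Tdg fl/fl FPKM + 1)), so that a positive value means higher in Tdg -/- cells. A gene with at least 1 FPKM in either genotype counts as measured, which 12053 genes were. Tdg itself had 9.48 FPKM in Tdg -/- cells and 22.1 FPKM in Tdg fl/fl cells, or 42.9% of the Tdg fl/fl level. The extent of the deletion within the gene was not stated in the labels.

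The epiblast is the pluripotent tissue of the early mouse embryo. Before implantation it is in a naive state, which ES cells resemble. After implantation it passes into a primed state, in which Otx2, Fgf5 and Pou3f1 come on and many naive factors are lost. Nodal, a TGF-beta family ligand, signals through activin receptors and the co-receptor Cripto to SMAD proteins and FOXH1, and induces Lefty1 and Lefty2, which are secreted inhibitors of Nodal itself. Naive ES cells already express Nodal and the Lefty genes, whereas Fgf5 is widely used as a marker of the primed state.

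The set spanned a wide range of levels, and its order at both ends was the same in both genotypes. In FPKM, which is per transcript length, Fgf5 stood lowest, followed by Pou3f1 and Otx2, and Nodal, Lefty1 and Lefty2 stood highest. Lefty1 and Lefty2 together made up 84.4% of the summed FPKM of the 10 genes in Tdg -/- cells and 84.0% in Tdg fl/fl cells. The sum itself was 853.4 FPKM in Tdg -/- cells and 850.2 FPKM in Tdg fl/fl cells. The other 4 genes, Fst, Foxd3, Zic2 and Cldn6, lay between 14.0 and 19.4 FPKM in Tdg -/- cells and between 10.1 and 22.5 FPKM in Tdg fl/fl cells. These 4 changed places among themselves between the genotypes. Whether such close neighbours in the order differ cannot be judged without replicate values.

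**Figure D1:**
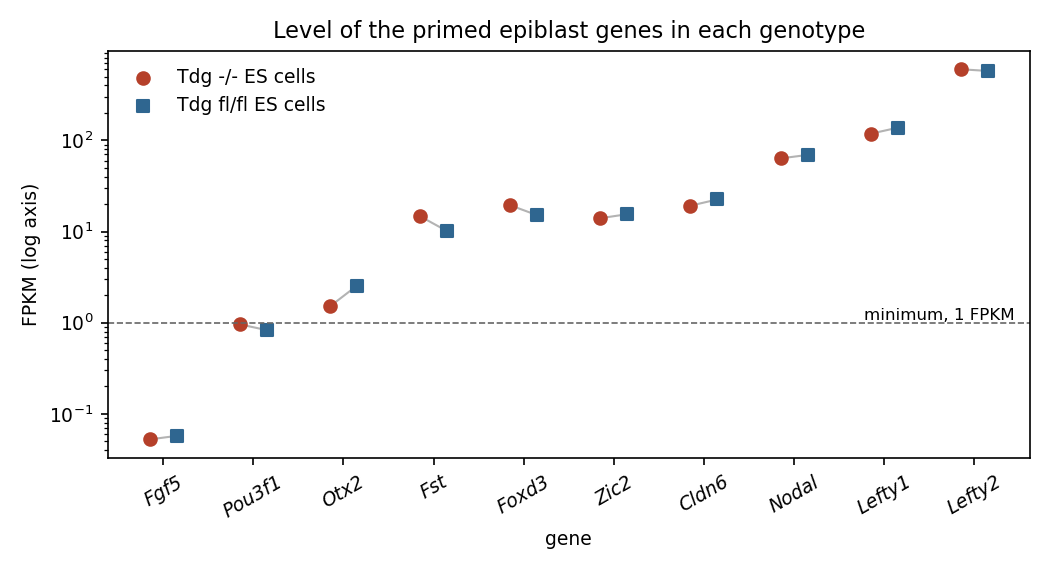
FPKM (log axis) of the 10 primed epiblast genes in Tdg -/- ES cells (circles) and Tdg fl/fl ES cells (squares), 1 pooled value for each genotype, with genes in the order of their level in Tdg fl/fl cells. Fgf5 and Pou3f1 lie under the dashed line at 1 FPKM in both genotypes, and Lefty2 lies highest, at 602.0 FPKM in Tdg -/- and 576.8 FPKM in Tdg fl/fl cells.

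Of the 10 genes, 8 were measured, and Fgf5 and Pou3f1 were under 1 FPKM in both genotypes. Among the measured genes 5 were lower and 3 higher in Tdg -/- cells. Of all measured genes 54.9% were lower, so the direction of the 8 was close to the background. Their median log2 change was -0.13, against -0.02 over all measured genes. None of the 8 reached an absolute log2 change of 1, which 0.357% of all measured genes reached, and none reached 0.5, which 3.45% reached. Otx2 and Fst missed the smaller of these limits by little, with log2 changes of -0.498 and 0.4996. The median absolute change was 0.22 for the 8 genes and 0.12 for all measured genes.

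**Figure D2:**
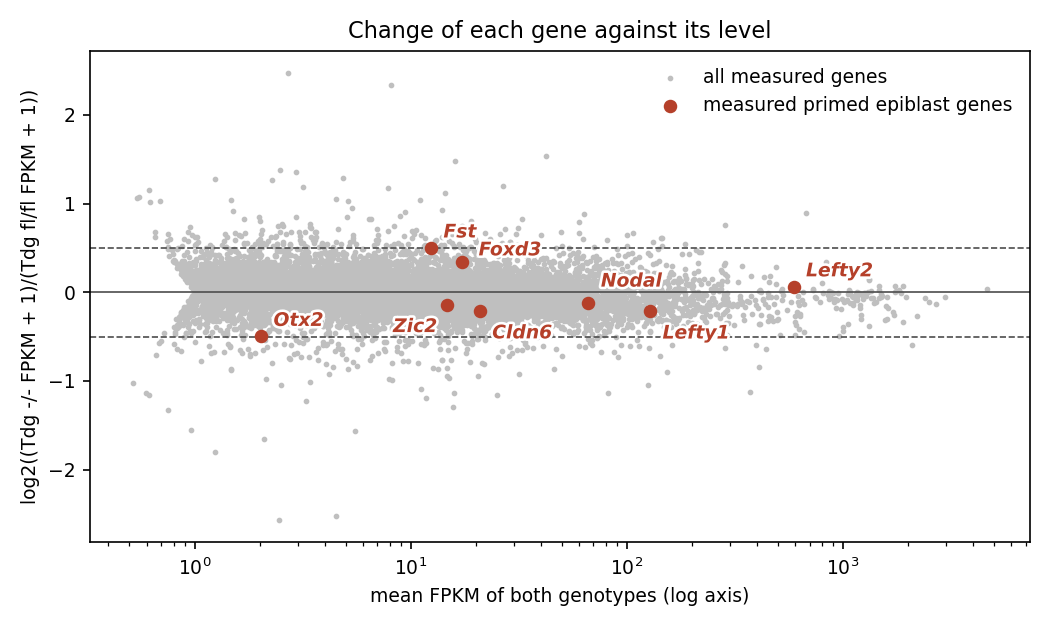
Log2 change of Tdg -/- against Tdg fl/fl cells (y axis) over the mean FPKM of both genotypes (x axis, log scale) for the 12053 measured genes (grey) and the 8 measured primed epiblast genes (red). Dashed lines mark 0.5 in either direction. Fst and Otx2 lie at the lines, and the other 6 red points lie between them.

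Otx2 encodes a homeodomain transcription factor that acts in the passage from the naive to the primed state. It had 1.51 FPKM in Tdg -/- cells and 2.55 FPKM in Tdg fl/fl cells, a ratio of 0.594. This was the lowest ratio of the set, at a level below most measured genes in both genotypes. Of the 2658 measured genes whose mean FPKM lay within 2-fold of that of Otx2, 5.08% had an absolute change at least as large. The size of its log2 change depends on the pseudocount, since the gene is low: it was -0.72 with 0.1 FPKM added in place of 1 and -0.21 with 5 FPKM added. The related homeobox genes Otx1 (0.472 FPKM in Tdg -/- and 0.475 FPKM in Tdg fl/fl cells) and Crx (0.665 and 0.689 FPKM in the same order) were not measured.

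Pou3f1, which encodes the POU-domain factor Oct-6, had 0.959 FPKM in Tdg -/- cells and 0.829 FPKM in Tdg fl/fl cells. It missed the minimum by little in Tdg -/- cells. It was nevertheless the highest of the 4 Pou3 genes, as Pou3f2, Pou3f3 and Pou3f4 did not exceed 0.254 FPKM in either genotype. Foxd3, a forkhead repressor needed to maintain the epiblast, had 19.4 FPKM in Tdg -/- cells and 15.1 FPKM in Tdg fl/fl cells, a log2 change of 0.34. An absolute change at least as large was seen in 7.23% of the 4745 genes within 2-fold of its level. Its relative Foxd1 differed the other way, with 2.29 FPKM in Tdg -/- cells against 4.46 FPKM in Tdg fl/fl cells (log2 change -0.73). Zic2, a zinc finger factor, had 14.0 FPKM in Tdg -/- cells and 15.5 FPKM in Tdg fl/fl cells, a log2 change of -0.14. Its paralog Zic5 was also measured (log2 change 0.02), whereas Zic1 and Zic4 were near 0 in both genotypes.

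Nodal had 63.4 FPKM in Tdg -/- cells and 69.2 FPKM in Tdg fl/fl cells, a log2 change of -0.12. An absolute change of this size or more was found in 49.9% of the 1925 genes within 2-fold of its level. Nodal was thus in the middle of what genes at its level showed. Lefty1 had 118.2 FPKM in Tdg -/- cells and 137.6 FPKM in Tdg fl/fl cells (log2 change -0.22), and Lefty2 had 602.0 FPKM in Tdg -/- cells and 576.8 FPKM in Tdg fl/fl cells (0.06). The paralogs thus differed in sign. For Lefty2, however, 71.5% of the 123 genes within 2-fold of its level had an absolute change at least as large. For Lefty1 this share was 28.3% of 934 genes. Lefty1 and Lefty2 are close in sequence, reads can be shared between them, and the authors' rule for such reads was not stated in the labels used here. Their summed level was 720.1 FPKM in Tdg -/- cells and 714.3 FPKM in Tdg fl/fl cells, a log2 change of 0.01. The ratio of Lefty2 to Lefty1 was 5.09 in Tdg -/- cells and 4.19 in Tdg fl/fl cells.

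Fst encodes follistatin, a secreted protein that binds and blocks activin. It had 14.7 FPKM in Tdg -/- cells and 10.1 FPKM in Tdg fl/fl cells, a ratio of 1.45, the highest of the set. An absolute change at least as large was seen in 2.68% of the 4807 genes within 2-fold of its level. Fst and Foxd3 were the 2 measured genes of the set with a log2 change above 0.3, and Otx2 was the 1 below -0.3.

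Fgf5, a ligand of FGF receptors, was close to 0 in both genotypes, with 0.0525 FPKM in Tdg -/- cells and 0.0574 FPKM in Tdg fl/fl cells. Fgf4, the FGF ligand that ES cells make themselves, had 206.9 FPKM in Tdg -/- cells and 196.9 FPKM in Tdg fl/fl cells. The other measured ligands of this family were Fgf3, Fgf10, Fgf11, Fgf17 and Fgf21, none of which exceeded 8.33 FPKM in either genotype. Fgf21 had the largest log2 change among them (0.62), with 1.00 FPKM in Tdg -/- cells and 0.304 FPKM in Tdg fl/fl cells. Cldn6, a claudin of tight junctions, had 19.2 FPKM in Tdg -/- cells and 22.5 FPKM in Tdg fl/fl cells, a log2 change of -0.22. Of the 21 claudins listed, 7 were measured. Cldn4 was the highest of them, with 138.2 FPKM in Tdg -/- cells and 130.7 FPKM in Tdg fl/fl cells, and Cldn7 had 21.2 FPKM in Tdg -/- cells and 15.1 FPKM in Tdg fl/fl cells (log2 change 0.46), the opposite direction to Cldn6. The other measured claudins, Cldn3, Cldn12, Cldn19 and Cldn20, had log2 changes between -0.16 and 0.26.

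Sequence upstream of the annotated transcription start was at hand for 5 of the 10 genes, Otx2, Fgf5, Cldn6, Foxd3 and Nodal (RefSeq, build GRCm38.p6). The 250 bases before the start are shown for 4 of them, which differ in level and in CpG content, because CpG dinucleotides are the main sites of the cytosine methylation from which 5fC is made. Capitals mark each CpG. For Otx2 the most upstream of 4 annotated starts was taken, on the minus strand at chr14:48667645-48667894. The others lie on the plus strand, Fgf5 at chr5:98253934-98254183, Foxd3 at chr4:99656049-99656298 and Nodal at chr10:61417722-61417971.
Fgf5: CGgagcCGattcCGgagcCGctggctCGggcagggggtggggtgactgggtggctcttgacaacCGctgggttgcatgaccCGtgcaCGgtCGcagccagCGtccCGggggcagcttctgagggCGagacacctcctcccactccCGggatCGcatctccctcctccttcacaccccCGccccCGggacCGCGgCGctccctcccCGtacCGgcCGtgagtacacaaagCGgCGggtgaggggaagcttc
Foxd3: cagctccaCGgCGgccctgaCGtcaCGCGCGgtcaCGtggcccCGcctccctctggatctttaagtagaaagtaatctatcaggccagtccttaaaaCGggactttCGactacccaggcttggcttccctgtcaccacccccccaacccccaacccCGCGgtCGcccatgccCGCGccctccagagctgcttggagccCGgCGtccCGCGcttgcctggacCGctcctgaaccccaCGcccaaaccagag
Otx2: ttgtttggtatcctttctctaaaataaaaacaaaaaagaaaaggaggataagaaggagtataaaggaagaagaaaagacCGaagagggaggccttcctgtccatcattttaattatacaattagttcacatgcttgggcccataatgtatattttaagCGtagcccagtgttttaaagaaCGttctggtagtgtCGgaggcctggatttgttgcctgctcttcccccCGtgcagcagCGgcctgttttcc
Nodal: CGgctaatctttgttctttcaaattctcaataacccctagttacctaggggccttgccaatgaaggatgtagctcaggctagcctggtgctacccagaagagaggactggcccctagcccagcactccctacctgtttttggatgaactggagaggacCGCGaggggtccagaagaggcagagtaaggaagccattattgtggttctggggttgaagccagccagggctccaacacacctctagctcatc

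The window of Fgf5 held 24 CpG, and 12.0% of the 32851 promoter windows of the same length held at least as many. That of Foxd3 held 21, reached by 16.3% of windows. The Otx2 window held 6, the same as the median of all windows, and the windows of its other starts held 8, 14 and 9. Cldn6 had 9 and Nodal 3, and 71.0% of all windows held at least as many CpG as that of Nodal. The gene of the set with the lowest FPKM thus had the window richest in CpG, and Nodal, above 60 FPKM in both genotypes, had the poorest of the 5. The genes between did not follow this order. Otx2, at 2.55 FPKM or less in both genotypes, had 6 CpG, and Foxd3, at 15.1 FPKM or more in both, had 21. With 5 genes this is a description of the sequences only. The deposited 5fC, 5hmC and p300 regions were not analysed here at these genes, since they are in the mm9 build and no mm9 gene annotation was used.

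The genes next to each member on its chromosome were compared with it, in the gene order of GRCm38.p6. Tdg itself lies on chromosome 10, which also holds Nodal. None of the 10 genes lies on chromosome 11, and the chromosomes that hold them had median log2 changes between -0.02 and 0.01. For Otx2 (-0.50), the 10 nearest measured genes lay between -0.39 and 0.18, with a median of 0.04. For Fst (0.50), they lay between -0.08 and 0.21, with a median of 0.04. Otx2 and Fst each lay outside the range of their neighbours. Foxd3 (0.34) lay above its neighbours, which ranged from -0.09 to 0.31, the highest being the adjacent Alg6. Cldn6 and Zic2 lay below all of theirs, which reached down to -0.12 for Cldn6 and to -0.01 for the 8 neighbours of Zic2. Nodal, Lefty1 and Lefty2 lay within the range of their neighbours.

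**Figure D3:**
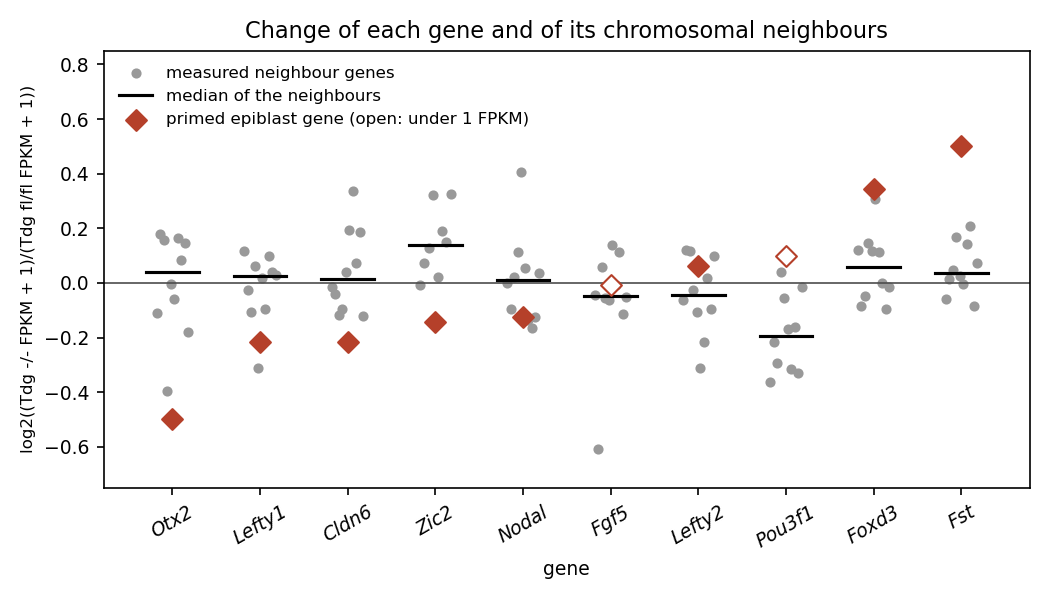
Log2 change of Tdg -/- against Tdg fl/fl cells (y axis) for each primed epiblast gene (diamonds, open for the genes under 1 FPKM) and for up to 5 measured genes on each side of it on the chromosome (grey), with the median of the neighbours as a black line. The diamonds of Otx2, Cldn6 and Zic2 lie below all of their neighbours, and those of Pou3f1, Foxd3 and Fst above.

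Some members sit beside a related or antisense gene. Otx2os1, the antisense neighbour of Otx2, had 0.0375 FPKM in Tdg -/- cells and 0.0469 FPKM in Tdg fl/fl cells. Cldn9, beside Cldn6, had 0.758 FPKM in Tdg -/- cells and 0.502 FPKM in Tdg fl/fl cells. Both were far below their partner. Zic5, beside Zic2, had 4.80 FPKM in Tdg -/- cells and 4.72 FPKM in Tdg fl/fl cells, and so did not share the lower value of Zic2. In the GRCm38.p6 annotation Fst overlaps Gm41074 and Lefty1 overlaps Gm39715, and the labels used here do not state whether reads were counted by strand.

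Of 28 Nodal and activin pathway genes outside the set, 23 were measured, 16 of them higher and 7 lower in Tdg -/- cells, where 54.9% of all measured genes were lower. Their median log2 change was 0.06. Among ligands, the largest change was that of Inhbe, a subunit of activin E, with 2.33 FPKM in Tdg -/- cells and 0.618 FPKM in Tdg fl/fl cells (log2 change 1.04). It was the only one of the 23 past 0.5 in either direction. Gdf1 had 2.48 FPKM in Tdg -/- cells and 1.48 FPKM in Tdg fl/fl cells (0.49). All 4 measured receptor genes had log2 changes between 0.02 and 0.17, among them Acvr1b and Tdgf1, the gene of Cripto, which had 730.2 FPKM in Tdg -/- cells and 720.0 FPKM in Tdg fl/fl cells. Of the effectors, Foxh1, the DNA-binding partner of SMAD2 in this pathway, was at 0.28 and Drap1, which restrains FOXH1, at -0.23.

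The antagonists and targets did not share a direction. Smad7, the inhibitory SMAD that is induced by the pathway, had 15.9 FPKM in Tdg -/- cells and 11.2 FPKM in Tdg fl/fl cells (log2 change 0.46). Skil, another target and a repressor of SMAD activity, had 14.1 FPKM in Tdg -/- cells and 16.4 FPKM in Tdg fl/fl cells (-0.21). Over 9 genes widely used as targets, which include Nodal, Lefty1 and Lefty2, 5 were higher and 4 lower in Tdg -/- cells, with a median of 0.005.

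Of 21 FGF/ERK genes outside the set, 12 were measured, 7 higher and 5 lower in Tdg -/- cells, where 54.9% of all measured genes were lower. Their median log2 change was 0.06. The largest changes were those of Myc (-0.41), the adaptor gene Grb2 (-0.31), and the feedback inhibitors Spry1 (0.26) and Dusp6 (0.23). Egr1 and Fos, which ERK signalling induces within minutes to hours in many cells, were under 1 FPKM in both genotypes. Dusp4 and Etv4 of the same list were also under 1 FPKM in both. Others of the list stood high. Etv5 had 100.7 FPKM in Tdg -/- cells and 96 FPKM in Tdg fl/fl cells, and Spry2 had 68.9 and 64 FPKM in the same order.

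**Figure D4:**
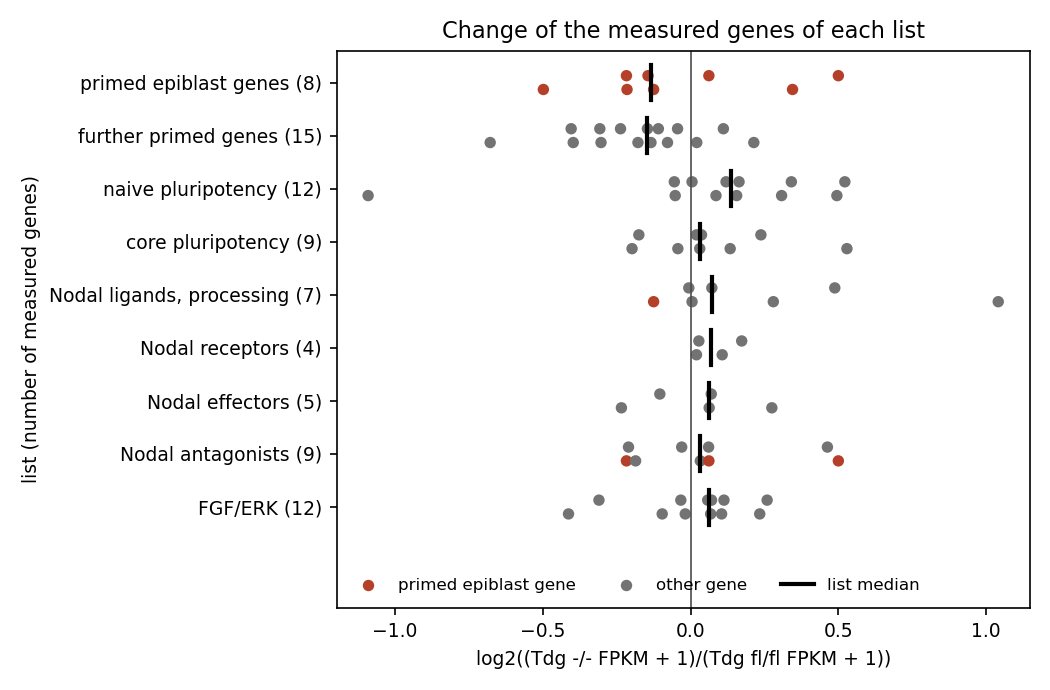
Log2 change of Tdg -/- against Tdg fl/fl cells (x axis) for the measured genes of each list, with the number measured in brackets and the list median as a black line. Red points are the primed epiblast genes, some of which also belong to a Nodal list. The medians are -0.13 for the primed epiblast genes, -0.15 for further primed genes and 0.14 for naive pluripotency genes.

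Further genes of the formative or primed epiblast were set beside the 10. Of 21 listed, 15 were measured, and 12 of these were lower in Tdg -/- cells, with a median log2 change of -0.15. Of all measured genes 54.9% were lower, with a median of -0.02, and the difference of the list from them was not tested. The largest changes were those of Lef1, a transcription factor of the Wnt pathway (0.824 FPKM in Tdg -/- and 1.92 FPKM in Tdg fl/fl cells, -0.68), the ephrin receptor gene Epha2 (-0.40), Tcf15 (-0.40) and the keratin gene Krt18 (-0.31). Of the 15, Lef1 alone passed 0.5. Krt18 also stands among the trophectoderm markers below. The de novo methyltransferase genes Dnmt3a (-0.11) and Dnmt3b (-0.13), which are raised in the primed epiblast, were close to the median of the list.

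Most naive pluripotency genes stood high in both genotypes. All 12 naive genes found in the tables were measured, 9 were higher and 3 lower in Tdg -/- cells, and their median log2 change was 0.14. Among all measured genes 54.9% were lower, and the naive list was not tested against them. Nanog had 455.9 FPKM in Tdg -/- cells and 472.7 FPKM in Tdg fl/fl cells. Tcl1 (0.52), Klf5 (0.49) and Tbx3 (0.34) had the largest positive changes and Dppa3 (-1.09) the largest negative one. Dppa3 was also the lowest of the 12 in both genotypes, with 6.77 FPKM in Tdg -/- cells and 15.6 FPKM in Tdg fl/fl cells. Of 9 core pluripotency genes, 6 were higher and 3 lower, with a median of 0.03. Utf1 alone of the 9 passed 0.5, which 3.45% of all measured genes reached. It had 46.1 FPKM in Tdg -/- cells and 31.6 FPKM in Tdg fl/fl cells (log2 change 0.53). In both genotypes Otx2, Fgf5 and Pou3f1 were thus low in cells where most naive and core genes were high.

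Most markers of more differentiated cells were low. Of the 12 gastrulation mesendoderm markers 2 were measured, with a summed FPKM over all 12 of 6.41 in Tdg -/- cells and 7.08 in Tdg fl/fl cells. The 2 were Eomes (3.09 FPKM in Tdg -/- and 3.11 FPKM in Tdg fl/fl cells) and Gsc (1.3 and 1.85 FPKM in the same order). Foxa2, Cer1 and Kdr were below 0.1 FPKM in both. Of 10 primitive endoderm markers 1 was measured (summed FPKM 3.28 in Tdg -/- and 3.53 in Tdg fl/fl cells), and of 10 fibroblast markers 3 were (4.92 and 6.79 in the same order). These 3 were Thy1 (1.72 FPKM in Tdg -/- and 2.36 FPKM in Tdg fl/fl cells), Pdgfrb (1.71 and 2.39 FPKM) and Twist1 (1.03 and 1.46 FPKM). All 3 were lower in Tdg -/- cells. Lum was listed at 0, and Col1a2, Col3a1 and Dcn were below 0.1 FPKM in both. Of 10 neuroectoderm markers 5 were measured (summed FPKM 60.1 in Tdg -/- and 63.8 in Tdg fl/fl cells, mainly Olig2 and Tubb3), and of the trophectoderm markers 5 of the 9 found in the tables (46.5 and 45.9 in the same order, mainly Tead4 and Krt8). Their part in the values of the primed epiblast genes was not tested. In such bulk samples, fewer cells that express a gene and less RNA of it per cell cannot be told apart.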

How the data were processed

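PolyA RNA of mouse ES cells was sequenced from 2 libraries for each genotype, and FPKM tables, 1 for each genotype, were deposited by the authors. The submitters' processing notes name TopHat 1.4.1, Cufflinks 1.3.0 and mm9, and the way the replicates were joined was not stated. The tables had 20437 rows each. Rows of one symbol were summed, which touched none of the 10 genes. Read numbers are not in the tables. Among 632 genes under 0.03 FPKM in both, the commonest Tdg -/- to Tdg fl/fl ratio (0.66, to 2 decimals) was shared by 29, too few to set a relative depth, so depth is unknown and no interval is given.

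Adding 1 FPKM before the log2 ratio understates changes of low genes. The naming rule took all 10 genes, from each list up to 4 measured genes by size of change and any changed by at least 1, the measured family members, and Tdg; 1 gene it covers is not reported here. Otx1, Crx, unmeasured family members, adjacent genes, Dnmt3a, Dnmt3b, Nanog and low markers were named after their values were seen. The same holds for Egr1, Fos, Dusp4, Etv4, Etv5 and Spry2. With 2 values per gene, likeness of patterns was not computed. Gene order came from RefSeq (GRCm38.p6), to which 20133 symbols matched by name or synonym. Tfcp2l1, Tfap2c and Rhox5 were not analysed here, nor were the 26 libraries other than RNA. The genes and lists were chosen with earlier results of these data known. Alternatives were pseudocounts of 0.1 and 5 FPKM, no minimum, a minimum of 5 FPKM, quantile normalization, median scaling, the highest row of a symbol and, chosen after seeing the data, Lefty1 and Lefty2 summed as 1 gene. Median scaling set the median log2 ratio, without a pseudocount, to 0 over genes with at least 5 FPKM in either genotype. Over all measured genes the median log2 change was then 0.014. The computation was checked on simulated data and run in Python 3.11.15 with pandas 2.3.3 and numpy 2.4.6.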

Additional observations from a re-analysis of the deposited data

How the results depend on the processing

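The median log2 change of the measured primed epiblast genes stayed below 0 under the 8 alternatives, between -0.14 and -0.07. Without a minimum 6 of all 10 genes were below 0, where 48.2% of all 20286 symbols were. With a minimum of 5 FPKM 4 of 7 were (59.0% of all measured genes), and with the Lefty genes summed 4 of 7 (54.9%). Under the other alternatives 5 of 8 were below 0, where between 46.6% and 54.9% of all measured genes were. The number past 0.5 was 0 and became 2 with a pseudocount of 0.1 FPKM, 2 after quantile normalization and 1 after median scaling, where Otx2, Fst or both crossed the limit. Of all measured genes 6.14%, 3.44% and 3.65% passed it under these settings. No alternative brought a gene past 1. Of 50 recomputed values of single genes, 3 moved by more than 0.12, the median absolute change of all measured genes: Otx2 with the other pseudocounts (-0.72 and -0.21) and Lefty2 after quantile normalization (0.22). The cause was not tested. Among the 63 recomputed medians of the Nodal, FGF/ERK, further primed, naive and core lists none moved by as much. No paired analysis was possible because each genotype has 1 pooled value per gene, and for the same reason no library could be left out. Without replicate values, changes of the size seen here cannot be told from the spread between cultures, and low genes such as Otx2 are the least certain.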
